A study of Mus musculus with 8 samples.

Results

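The clock output factors described here are 7 transcription regulators that stand next to the circadian clock. They were measured in mouse brown adipose tissue (BAT) after sham surgery (Sham) or after thoracic aortic constriction (TAC), in which a ligature around the aorta loads the left ventricle with pressure. The set holds Dbp, Tef and Hlf, the activators of the PAR-bZIP family, Nfil3, a repressor with a related DNA-binding domain, and Ciart, Bhlhe40 and Bhlhe41, which repress the clock's central activator. The genes were found by matching the RefSeq accession of each array probe to its symbol, which gave 7 of the 21150 named genes on the array and 9 of its 55681 probes, with 2 probes each for Dbp and Bhlhe41 and 1 probe for each other gene. All 7 genes, with all 9 probes, passed the filter on dim signals. The set was chosen with the TAC and Sham values of these arrays already known, so its differences between TAC and Sham are given as a description with no test.

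By the labels, the animals were male C57BL/6NCrSlc mice kept on normal chow under a light and dark cycle, operated on at 11 weeks of age and 13 weeks old when BAT was taken. Each group had 4 mice with 1 one-colour array each, and no genotype or drug set the groups apart. The source name and the treatment protocol put collection 2 weeks after surgery, which matches the ages, whereas the description line says 4 weeks. No time of day of collection is given in the sources used here, so a difference in clock time between the groups was not tested. The RNA came from whole tissue, in which fewer cells of a type and less RNA per cell cannot be told apart.

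In nearly every cell the clock runs as a feedback loop. CLOCK and BMAL1, the product of Arntl, bind a short DNA element called the E-box and switch on the Per, Cry and Nr1d genes, whose products then shut this activator or its gene off. Output factors carry the rhythm onward. DBP, TEF and HLF activate genes through another element, the D-box, for which NFIL3 competes as a repressor, while BHLHE40, BHLHE41 and CIART oppose the activator at the E-box. Transcription of Dbp is a classical rhythmic output of the E-box, and transcription of Nfil3 is repressed by NR1D1 through ROR elements. In brown fat the clock is known to accompany daily rhythms of heat production.

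The promoters are shown because clock factors are known to act through elements of the kind searched here. RefSeq promoters of assembly GRCm38.p6 were available for 6 of the 7 genes, all but Bhlhe40, with 2 start sites for Tef. The start site used for Nfil3, at 52981039, lies inside the gene, whose upstream end is at 52982878. The 250 bases before each start site were searched on both strands for the E-box CACGTG, the D-box TTACGTAA or TTATGTAA, the ROR element TAGGTCA and the cAMP response element TGACGTCA. None of these letter strings contains another one. In the lines that follow, all written 5′ to 3′ on the strand of the gene, capitals mark the matched letters.
Ciart, chr3:95882229-95882478, minus strand: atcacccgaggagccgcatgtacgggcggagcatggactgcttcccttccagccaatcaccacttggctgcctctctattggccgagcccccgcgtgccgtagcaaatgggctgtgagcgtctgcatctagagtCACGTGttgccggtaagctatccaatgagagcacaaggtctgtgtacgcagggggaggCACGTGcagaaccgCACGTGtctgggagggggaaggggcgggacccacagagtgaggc
Bhlhe41, chr6:145865521-145865620, minus strand: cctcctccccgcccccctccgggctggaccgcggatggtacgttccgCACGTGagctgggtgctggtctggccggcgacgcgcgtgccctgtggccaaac
Tef, first start site, chr15:81802493-81802592, plus strand: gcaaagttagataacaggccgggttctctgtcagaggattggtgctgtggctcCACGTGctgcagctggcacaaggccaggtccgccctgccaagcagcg
Tef, second start site, chr15:81811234-81811333, plus strand: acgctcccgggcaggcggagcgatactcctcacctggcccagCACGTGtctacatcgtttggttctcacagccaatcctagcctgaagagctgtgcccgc
Nfil3, chr13:52981040-52981099, minus strand: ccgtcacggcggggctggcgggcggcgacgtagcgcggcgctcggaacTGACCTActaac
Hlf, chr11:90390918-90390977, minus strand: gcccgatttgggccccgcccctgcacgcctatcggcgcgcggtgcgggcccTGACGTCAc

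Ciart held 3 E-boxes, which began at positions -116, -58 and -44 relative to its start site. Of 32851 mouse promoters in the table, 6.02% had an E-box in a window of this length and 20 (0.0609%) had 3 or more. Bhlhe41 had 1 E-box, and so did each start site of Tef. The ROR element of Nfil3 began at position -12 on the opposite strand, where it reads TGACCTA on the strand printed, and 2.23% of all promoters had a match to it. Hlf had a cAMP response element at position -9, an element found in 1.55% of all promoters. The D-box letters, present in 0.931% of promoters, were in none of these windows. None of the searched strings was in the window of Dbp. A match describes the letters only, and the arrays carry no measurement of binding.

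Scanner intensities were used for 7 arrays, all but Sham replicate 1, and a deposited table of intensities divided by the 75th percentile of each array was used for all 8. Levels below are log2 values of that table, so that 0 is the 75th percentile of the array, and differences are TAC minus Sham from limma, a linear model that shares its estimate of spread across probes, with standard errors (SE). Between 54.5% and 64.3% of spots were well above background. The 7 scanned arrays came from 1 slide with Sham in one row and TAC in the other, so place on the slide and surgery cannot be told apart. TAC replicate 1 stood apart, at 89.9 on the first principal component of the table (34.6% of variance) with the other 7 arrays between -32.5 and 4.54. The brown fat markers Ucp1, the uncoupling protein that makes heat, and Cidea were well above background on every scanned array, with levels on all 8 of 8.56 to 9.88 and at 10.3 to 10.9. Of 33378 probes tested, 0% passed an adjusted p of 0.05 in limma (Benjamini-Hochberg, smallest adjusted p = 0.0576). At an unadjusted p under 0.05, 8.44% were lower and 4.38% were higher after TAC. Over all probes 55.9% were lower, with a median difference of -0.03.

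Among the clock output factors, Bhlhe40 was 2.56-fold lower after TAC, and Dbp and Ciart were 1.57-fold and 1.65-fold lower. Tef and Bhlhe41 were lower by less, Hlf lay near 0, and Nfil3, the repressor of the D-box, was 1.32-fold higher. Thus 5 of the 7 genes were lower over 7 arrays and 6 of the 7 over 8 arrays, with a median difference of -0.28 and -0.45. In Bhlhe40 and Ciart, and in no other of the 7 genes, every TAC array lay below every Sham array. That held over 7 arrays, where 10.4% of all probes tested had this pattern and 5.58% the opposite one, and over 8 arrays, where the shares were 6.29% and 3.52%. Because the set was chosen on this contrast, nothing is read from its count against these shares. Nor is anything read from the ranks of single genes among all probes that are given below.

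**Figure D1:**
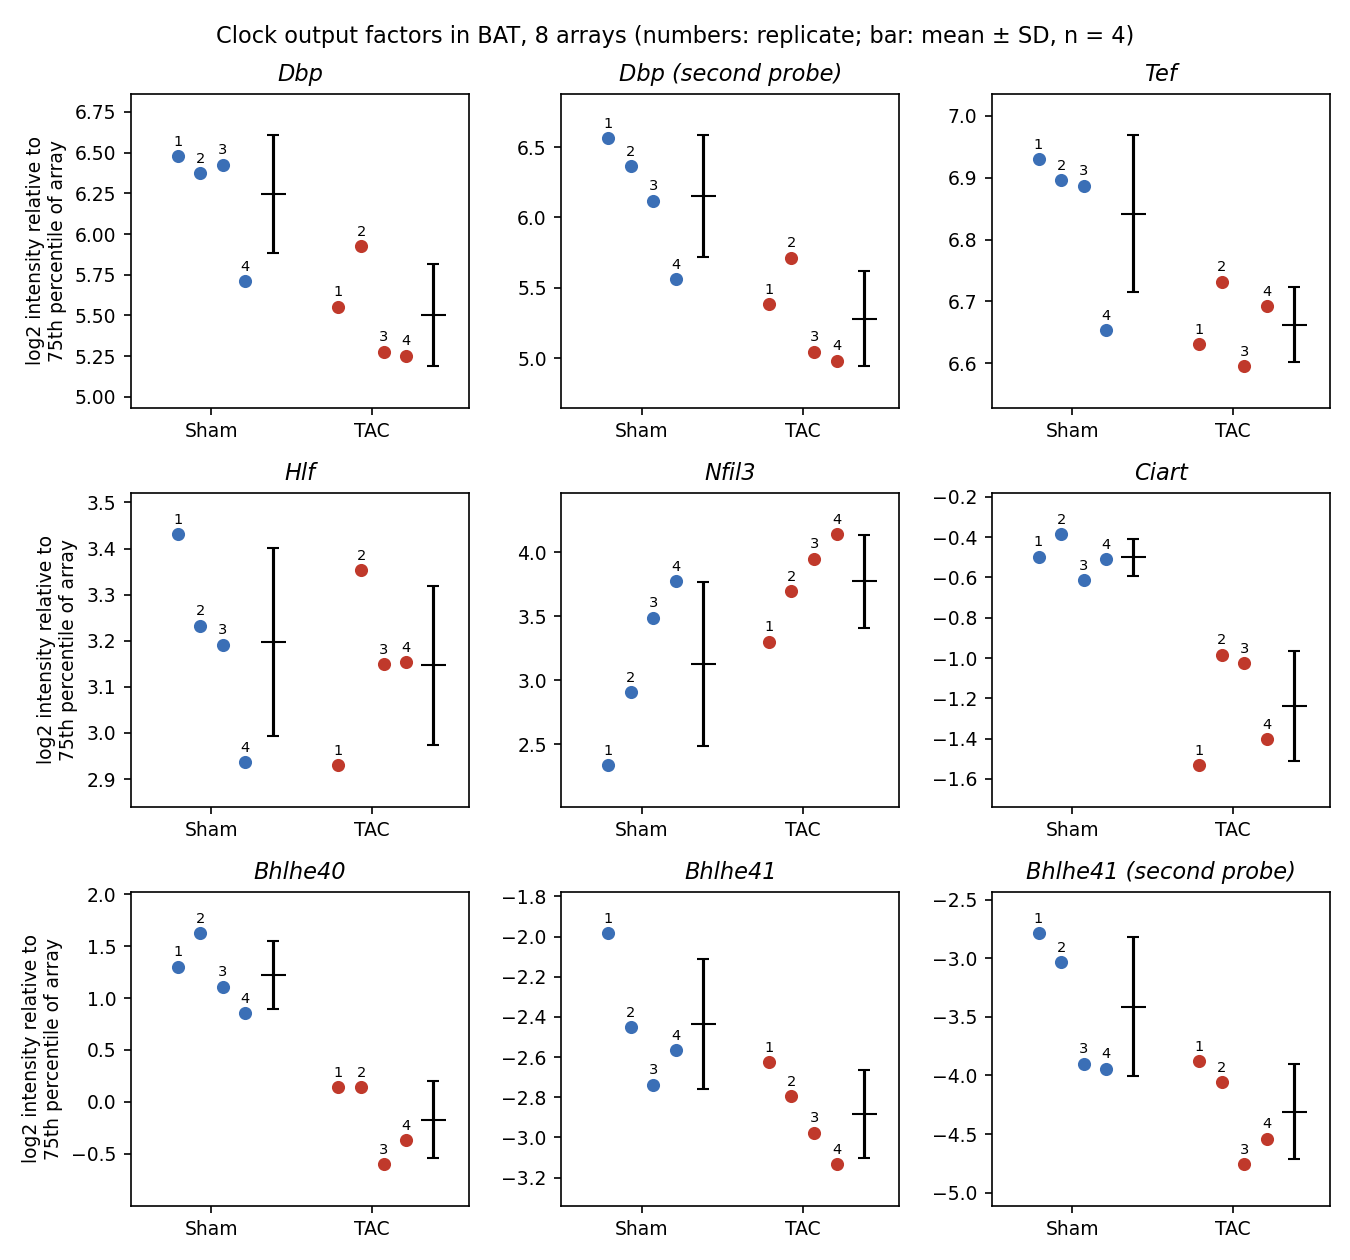
Level of each probe of the 7 genes on each array, as log2 intensity relative to the 75th percentile of the array (vertical axis, scaled for each panel), for 4 Sham (blue) and 4 TAC (red) mice. The numbers name the replicates and the black bars give the mean ± SD (n = 4). The groups separate for Bhlhe40, between 0.86 and 0.14, and for Ciart, between -0.61 and -0.98, and overlap in the other panels.

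Bhlhe40 encodes a basic helix-loop-helix repressor that binds E-boxes and is itself switched on by CLOCK and BMAL1. Its level was 1.30, 1.63, 1.11 and 0.86 on Sham replicates 1 to 4 and 0.14, 0.14, -0.60 and -0.37 on TAC replicates 1 to 4. The lowest Sham array was above the highest TAC array by 0.72. The means were 1.22 ± 0.32 (SD, n = 4) in Sham and -0.17 ± 0.37 (SD, n = 4) in TAC, and the difference was -1.35 (SE 0.25) over 7 arrays and -1.40 (SE 0.22) over 8. Of the 33378 probes, 101 (0.303%) were lower after TAC by more than this. Leaving out 1 array at a time moved the difference between -1.52 and -1.15, and without TAC replicate 1 it was -1.46.

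Ciart encodes another repressor of CLOCK and BMAL1, one without a basic helix-loop-helix domain, and it is the gene with 3 E-boxes above. It stood at -0.50, -0.38, -0.61 and -0.51 in Sham and at -1.53, -0.98, -1.03 and -1.40 in TAC, for replicates 1 to 4. The Sham mice lay within 0.23 of each other and the TAC mice within 0.55, and the gap between the groups was 0.37. Means were -0.50 ± 0.093 (SD, n = 4) and -1.24 ± 0.27 (SD, n = 4). The difference was -0.72 (SE 0.16) over 7 arrays and -0.74 (SE 0.14) over 8. In 972 probes (2.91%) the value after TAC was lower by more. The difference ranged from -0.80 to -0.62 with 1 array left out, the latter without TAC replicate 1.

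Bhlhe41 encodes the closest relative of BHLHE40. Its brighter probe read -1.98, -2.45, -2.74 and -2.56 in Sham and -2.63, -2.80, -2.98 and -3.13 in TAC. The groups overlapped at Sham replicate 3, which lay below TAC replicate 1, and Sham replicate 1 was the highest array. The difference was -0.28 (SE 0.14) over 7 arrays and -0.45 (SE 0.18) over 8, and background correction by normexp, which models the background of each spot, gave -0.12. The second probe was at -2.79, -3.04, -3.90 and -3.94 in Sham and at -3.88, -4.06, -4.76 and -4.54 in TAC. It was well above background on 5 of the 7 scanned arrays and not on TAC replicates 3 and 4. Its difference was -0.67 (SE 0.30) over 7 arrays and -0.89 (SE 0.32) over 8. The deviations of the 2 probes from their group means went together across the 8 arrays (r = 0.86), which describes probes of 1 gene on the same arrays.

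Dbp encodes the PAR-bZIP activator known for a strong daily rhythm in many tissues. Its brighter probe read 6.48, 6.37, 6.43 and 5.71 on Sham replicates 1 to 4 and 5.55, 5.92, 5.28 and 5.25 on TAC replicates 1 to 4. Sham replicate 4 lay below TAC replicate 2 and apart from the other Sham mice, while these 3 were above every TAC mouse. The means were 6.25 ± 0.36 (SD, n = 4) and 5.50 ± 0.31 (SD, n = 4). The difference was -0.65 (SE 0.23) over 7 arrays and -0.75 (SE 0.21) over 8. For 1206 probes (3.61%) the difference was further below 0. The second probe gave 6.56, 6.36, 6.12 and 5.56 in Sham and 5.38, 5.71, 5.05 and 4.98 in TAC. There the groups overlapped at the same arrays, the difference was -0.72 (SE 0.24) over 7 arrays and -0.87 (SE 0.24) over 8, and the deviations of the 2 probes correlated with r = 0.95 over the 8 arrays. Without Sham replicate 4 the difference of the brighter probe was -0.88, and without Sham replicate 3 it was -0.52.

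Tef, the PAR-bZIP activator known from the pituitary as thyrotroph embryonic factor, was at 6.93, 6.90, 6.89 and 6.65 in Sham and at 6.63, 6.73, 6.60 and 6.69 in TAC. As for Dbp, Sham replicate 4 fell among the TAC arrays and the 3 other Sham mice were above all of them. The difference was -0.13 (SE 0.094) over 7 arrays and -0.18 (SE 0.086) over 8. It was -0.21 without Sham replicate 4 and -0.07 with quantile normalization. The size of this change was exceeded by 54.8% of all probes tested.

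Hlf, the third activator of the family, read 3.43, 3.23, 3.19 and 2.94 in Sham and 2.93, 3.35, 3.15 and 3.15 in TAC. The groups overlapped over most of their range. The difference was 0.04 (SE 0.13) over 7 arrays and -0.05 (SE 0.13) over 8, and leaving out 1 array at a time gave values from -0.05 to 0.12. In 84.7% of probes the size of the difference was larger.

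Nfil3 was the only one of the 7 genes that was higher after TAC in both sets of arrays. The arrays gave 2.34, 2.91, 3.49 and 3.78 for Sham replicates 1 to 4 and 3.30, 3.69, 3.95 and 4.14 for TAC replicates 1 to 4. Sham replicates 3 and 4 lay within the range of the TAC arrays, and Sham replicates 1 and 2 were below it. Means were 3.13 ± 0.64 (SD, n = 4) and 3.77 ± 0.36 (SD, n = 4), and the Sham spread was the widest of the 7 genes. The difference was 0.40 (SE 0.27) over 7 arrays and 0.64 (SE 0.32) over 8, 1.56-fold. It rested in part on single Sham mice, being 0.15 without Sham replicate 2 and 0.59 without Sham replicate 4.

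**Figure D2:**
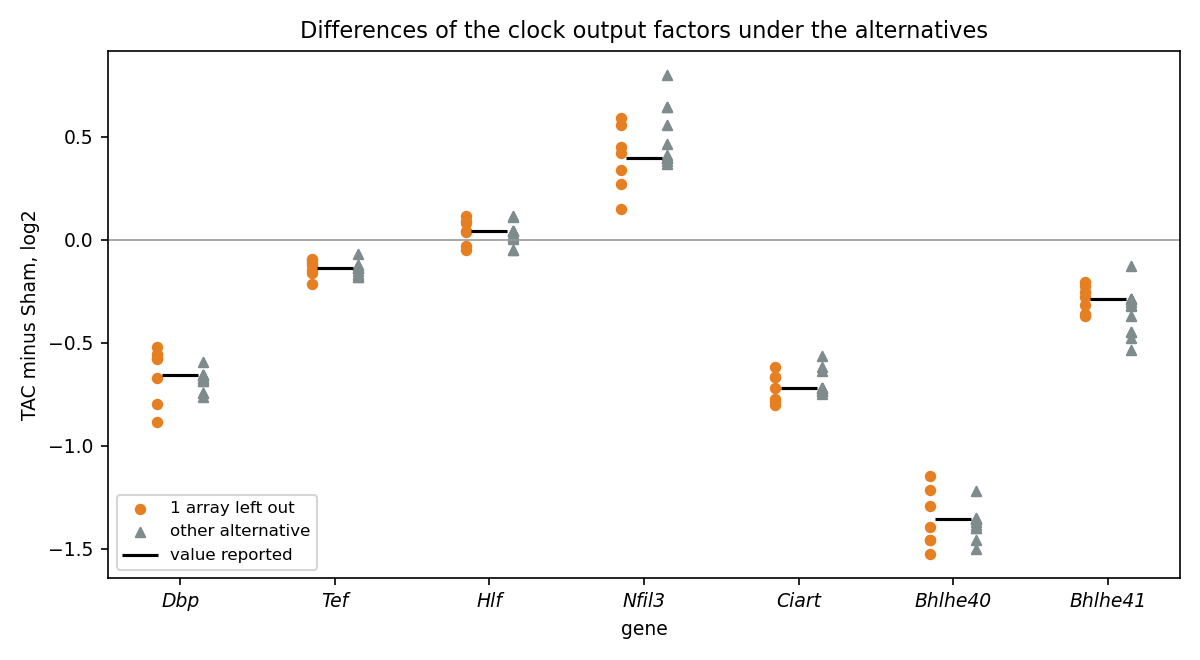
TAC minus Sham difference (log2, vertical axis) of each of the 7 genes. The black line gives the value over 7 scanned arrays, orange points the fits that leave out 1 array, and grey triangles the other processing alternatives. Bhlhe40 stays between -1.52 and -1.15, Ciart between -0.80 and -0.57 and Dbp between -0.88 and -0.52, whereas Nfil3 reaches from 0.15 to 0.80 and Hlf lies on both sides of 0.

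Markers of other cell types were followed on the same arrays. The 10 skeletal muscle markers were all higher after TAC, with a median difference of 1.02 over 7 arrays and 0.77 over 8. Their groups overlapped. Summed levels over the 8 arrays (linear multiples of the 75th percentile) were 50.8 to 182.9 in Sham and 63.8 to 291.2 in TAC. Acta1, the actin of skeletal muscle, was at 2.62 to 4.54 in Sham and at 2.65 to 5.24 in TAC. Of the 10 macrophage markers 3 were lower and 7 higher over 7 arrays, whereas 6 were lower over 8 (medians 0.05 and -0.05), with summed levels over the 8 arrays of 48.1 to 52.6 in Sham and 40.7 to 78.1 in TAC. The top value was that of TAC replicate 1, without which the TAC arrays reached 48.5 at most, and Adgre1, a macrophage surface receptor, was at 0.95 on it and between -1.09 and -0.15 on the other 7. Of 10 lymphocyte markers 5 were tested, 1 lower and 4 higher over 7 arrays but all 5 lower over 8 (medians 0.04 and -0.05), with summed levels over the 8 arrays of 9.72 to 10.9 in Sham and 9.45 to 10.3 in TAC, and Cd3e, a part of the T cell receptor, was at 1.08 to 1.38 and at 1.06 to 1.34. The linear sum follows the brighter genes. The mean log2 level of the 5, relative to the Sham mean, was 0.68 on TAC replicate 1. It was -0.46 to -0.23 on the other TAC arrays and -0.30 to 0.35 in Sham. Cd3g, Cd8a and Cd79b were highest of all 8 arrays on TAC replicate 1, and Cd3e and Cd4 were not. The B cell markers Cd79a and Ms4a1 were not tested, being too dim. Of 10 brown adipocyte markers 9 were lower over 7 arrays and 8 over 8 (medians -0.20 and -0.23), and 3 of them, Ucp1 by -0.61 (SE 0.21, limma adjusted p = 0.336), Otop1 and Elovl3, lay below Sham on every TAC array. Over all probes tested this pattern held for 10.4% over 7 arrays and 6.29% over 8. TAC replicate 1 was the lowest array for each of these 3, with Ucp1 at 8.56 on it and at 9.14 to 9.40 on the other TAC arrays. The mean log2 level of the 10, relative to the Sham mean, was -1.26 on TAC replicate 1. It was -0.56 to -0.01 on the other TAC arrays and -0.23 to 0.26 in Sham. The part of the marker genes of all these cell types in the clock gene values was not tested.

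The core loop itself was compared with limma over all probes to place the output factors. Of 18 genes 17 were tested, Npas2 being too dim, and 0 of the 17 passed an adjusted p of 0.05 or an unadjusted p under 0.05 (smallest adjusted p = 0.453). The loop genes were lower in 11 and higher in 6, with a median difference of -0.08, against -0.03 over all probes and -0.28 over the output factors, and over 8 arrays 13 were lower with a median of -0.06. Without Sham replicate 2 the median of the loop genes was 0.02. Arntl, which encodes BMAL1, had the largest difference of the list at 0.72 (SE 0.36, limma adjusted p = 0.453), reading -3.61, -3.72, -3.25 and -2.72 in Sham and -3.04, -3.0, -1.95 and -2.10 in TAC. TAC replicates 3 and 4 were above every Sham mouse, and TAC replicates 1 and 2 were among the Sham mice. The difference of this dim gene was 0.47 without Sham replicate 2 and 0.36 with normexp. Cry1, a repressor of the loop, differed by -0.31 (SE 0.17) over 7 arrays and by -0.13 (SE 0.23) over 8, with -0.53 without Sham replicate 2 and -0.15 without Sham replicate 4. Nr1d1, whose product represses Arntl and Nfil3, spread from -0.24 to 1.62 in Sham and from -0.05 to 0.47 in TAC, and its difference was -0.09 (SE 0.36) over 7 arrays and -0.45 (SE 0.43) over 8. It was 0.38 without Sham replicate 2.

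Differences of the other loop genes described here lay between -0.15 and 0.21. Nr1d2 differed by -0.13 and Cry2 by -0.12, and both turned above 0 without Sham replicate 2 (0.02 and 0.03). The receptor genes Rora and Rorb, whose products act on ROR elements, differed by -0.15 and 0.21. With 1 array left out Rora ranged from -0.25 (without TAC replicate 2) to -0.04 (without TAC replicate 1) and Rorb from 0.06 (without Sham replicate 3) to 0.40 (without Sham replicate 4). Per1 differed by -0.09 (SE 0.077) with every TAC array below the 3 scanned Sham arrays, but Sham replicate 1, at 5.10, was below all TAC arrays. Arntl2, Clock, Per2, Per3, Csnk1d, Csnk1e and Fbxl21 lay between -0.10 and 0.10, the dim Fbxl21 with an SE of 0.70, and 6 of these 7 took both signs among the alternatives. The known E-box targets did not share one size, with Bhlhe40 at -1.35 and Dbp at -0.65 beside Per1 at -0.09, and those differences between genes were not tested.

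**Figure D3:**
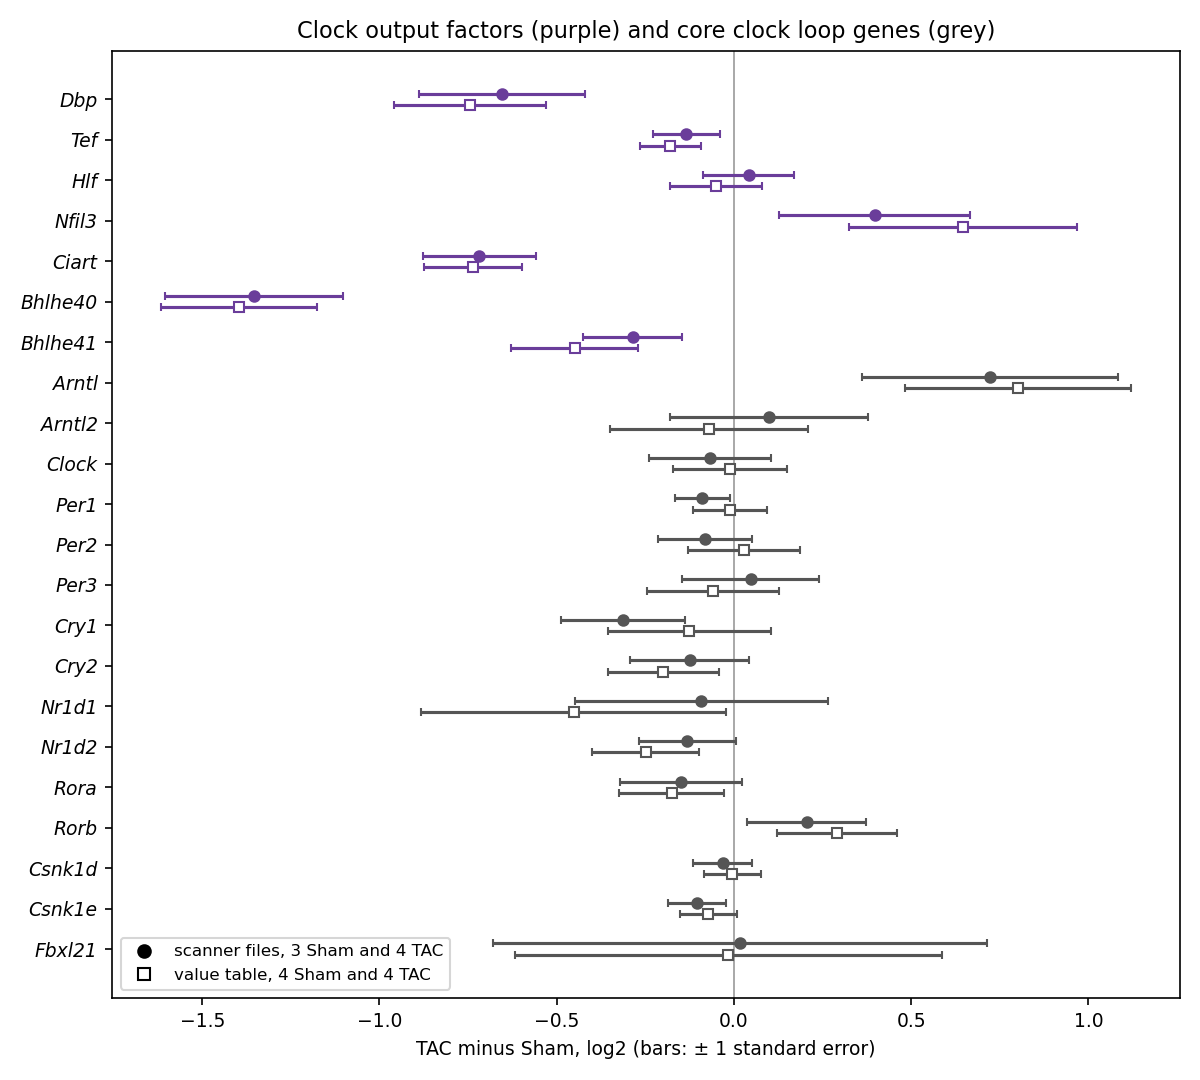
TAC minus Sham difference (log2, horizontal axis) with ± 1 standard error for the 7 clock output factors (purple) and 15 of the 17 core clock loop genes tested (grey). Filled circles are the fit over 3 Sham and 4 TAC arrays and open squares the fit over 4 and 4. Among the circles, Bhlhe40 at -1.35 lies farthest from 0 and Arntl at 0.72 is the highest value. Among the squares they lie at -1.40 and 0.80. The bars of most loop genes cross 0.

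Genes that the output factors act on were examined as well. Of 8 genes known to be controlled by the PAR-bZIP factors, mainly in liver, 4 were measured in BAT, 2 lower and 2 higher (median difference -0.01 over 7 arrays and 0.09 over 8). None passed an adjusted p of 0.05, and 1, Nr1i3, had an unadjusted p under 0.05. Over all probes tested 8.44% were lower and 4.38% higher at that limma threshold. Nr1i3, the nuclear receptor CAR, read -0.89, -1.57, -1.32 and -1.49 in Sham and -1.84, -1.67, -1.91 and -1.76 in TAC. It was lower on every TAC array, by -0.32 (SE 0.10, limma adjusted p = 0.311). Such a separation held for 10.4% of all probes tested over 7 arrays and 6.29% over 8. Por, the electron donor of cytochrome P450 enzymes, differed by -0.18 (SE 0.15), and Alas1, the first enzyme of heme synthesis, by 0.25 (SE 0.16). Without TAC replicate 1 these were -0.06 and 0.14, and without Sham replicate 2 Alas1 was at 0.12. Without Sham replicate 2 the median of the 4 genes was -0.16.

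Of 8 other genes with clock-controlled expression all were tested, 5 were lower and 3 higher over 7 arrays (median -0.04), and 3 were lower and 5 higher over 8 (median 0.03). None passed an adjusted p of 0.05, and 1 lower and 1 higher gene, Cipc and Lonrf3, had an unadjusted p under 0.05. The shares over all probes tested were 8.44% lower and 4.38% higher. Cipc, which encodes an inhibitor of CLOCK, was at 3.45 to 3.66 in Sham and at 2.99 to 3.33 in TAC, a difference of -0.37 (SE 0.11, limma adjusted p = 0.285). Lonrf3 went the other way, from -0.78 to -0.14 in Sham and from -0.12 to 0.20 in TAC, a difference of 0.35 (SE 0.12, limma adjusted p = 0.336). Tsc22d3, a glucocorticoid-induced leucine zipper gene that is also rhythmic, differed by 0.29 (SE 0.15), with overlapping groups. These 3 lists were compiled with earlier results of the arrays known.

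Taking deviations from the group means removes the TAC minus Sham difference, though not the spread among mice that sets its SE. The variation among mice of the same surgery was used to ask which of the 7 genes varied together. Deviations from the group mean over the 8 arrays were correlated for 35 pairs, 21 among the 7 genes and 14 with Arntl or Nr1d1, and tested by exact permutation, two-sided, over the 576 arrangements within the groups, which can give no p below 0.00174. After Benjamini-Hochberg adjustment 0 of the 35 pairs passed 0.05, and 7 pairs had an unadjusted p under 0.05, with Pearson's r and with Spearman's rho alike in number. With quantile normalization 3 pairs passed. All pairs share the same 8 arrays, and the permutations take the 8 deviations as free of each other. Same-numbered Sham and TAC mice lay alike in some of these genes, however. The deviations of Nfil3 were -0.79, -0.22, 0.36 and 0.65 for Sham replicates 1 to 4 and -0.47, -0.08, 0.18 and 0.37 for TAC replicates 1 to 4, and those of Arntl were below 0 for replicates 1 and 2 and above 0 for replicates 3 and 4 in both groups. The labels do not say what the numbers mark, and the p-values given here do not allow for such likeness.

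The largest r was that of Bhlhe40 with Arntl (r = -0.97, exact permutation p = 0.0069, adjusted p = 0.076; rho = -0.90, p = 0.021, adjusted p = 0.15). Every mouse above its group mean in Bhlhe40 was below it in Arntl, and the reverse. Without Sham replicate 2 and TAC replicate 3, the arrays farthest from the median of Bhlhe40, r was -0.998, and without TAC replicate 1 it was -0.96. For Dbp with Arntl r was also negative (r = -0.85, exact permutation p = 0.031, adjusted p = 0.16; rho = -0.67), and for Nfil3 with Arntl it was positive (r = 0.79, exact permutation p = 0.026, adjusted p = 0.15; rho = 0.76).

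Nfil3 had a negative r with Nr1d1 (r = -0.93, exact permutation p = 0.0035, adjusted p = 0.061; rho = -0.90, p = 0.021, adjusted p = 0.15). The relation was -0.91 without Sham replicates 1 and 2, the farthest arrays, and -0.94 without TAC replicate 1. A negative r was also seen for Nfil3 with Bhlhe41 (r = -0.91, exact permutation p = 0.0087, adjusted p = 0.076; rho = -0.88), with -0.80 when Sham replicates 1 and 2 were left out. Bhlhe41 in turn had a positive r with Nr1d1 (r = 0.82, exact permutation p = 0.0017, the smallest it can be, adjusted p = 0.061; rho = 0.90), and r was 0.70 without Sham replicate 1 and TAC replicate 4.

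**Figure D4:**
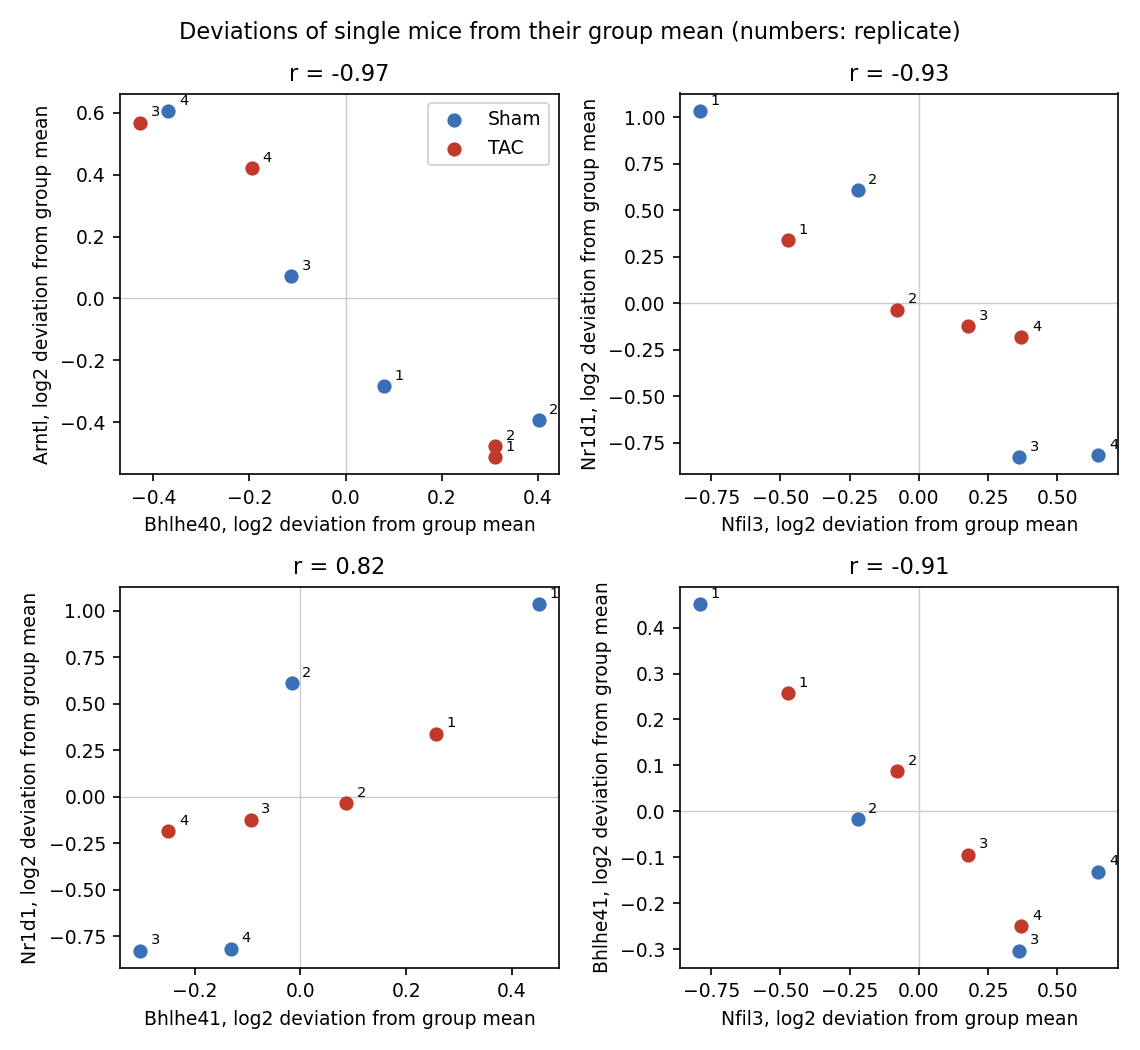
Deviation of each mouse from the mean of its group (log2, both axes) for 4 pairs of genes, with Sham in blue, TAC in red and the replicate number beside each point. The points slope downward for Bhlhe40 with Arntl (r = -0.97) and for Nfil3 with Nr1d1 (r = -0.93) and Bhlhe41 (r = -0.91), and upward for Bhlhe41 with Nr1d1 (r = 0.82).

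In the 3 PAR-bZIP activators Sham replicate 4 was the lowest Sham mouse, with deviations of -0.54 for Dbp, -0.19 for Tef and -0.26 for Hlf. The part of this array in the correlations among them was not tested. Among these 3 activators every r was positive. It was largest for Tef with Hlf and with Dbp, namely for Hlf (r = 0.82, exact permutation p = 0.019, adjusted p = 0.13; rho = 0.88) and for Dbp (r = 0.85, exact permutation p = 0.050, adjusted p = 0.22; rho = 0.88), and smaller for Dbp with Hlf (r = 0.71, exact permutation p = 0.090, adjusted p = 0.26; rho = 0.69). With Nfil3 each of the 3 had a negative r, of -0.65, -0.58 and -0.47 for Dbp, Tef and Hlf, none with an unadjusted p under 0.05. Over the 7 scanned arrays, which lack Sham replicate 1, these were -0.61, -0.36 and -0.04. Dbp and Bhlhe40 had r = 0.76 (exact permutation p = 0.066, adjusted p = 0.24; rho = 0.62). Over the 8 arrays Ciart stood outside this pattern. Its r with the other 6 genes was between -0.02 and 0.53, and its r with Arntl and Nr1d1 was 0.03 and 0.08. Leaving arrays out changed some of these values. Without TAC replicates 1 and 4, farthest from the median of Ciart, r with Bhlhe40 and Bhlhe41 was 0.62 and 0.41. With Arntl and Nr1d1 it was -0.47 and 0.64. Without TAC replicate 1 alone, these values were 0.41, 0.47, -0.45 and 0.33. For Dbp, Tef, Hlf and Nfil3 r was then 0.35, -0.02, 0.27 and -0.39. The values of Ciart separated Sham from TAC, and no covariation with the other genes was detectable within the groups over 8 arrays. In all, 15 of the 21 pairs had r above 0.

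**Figure D5:**
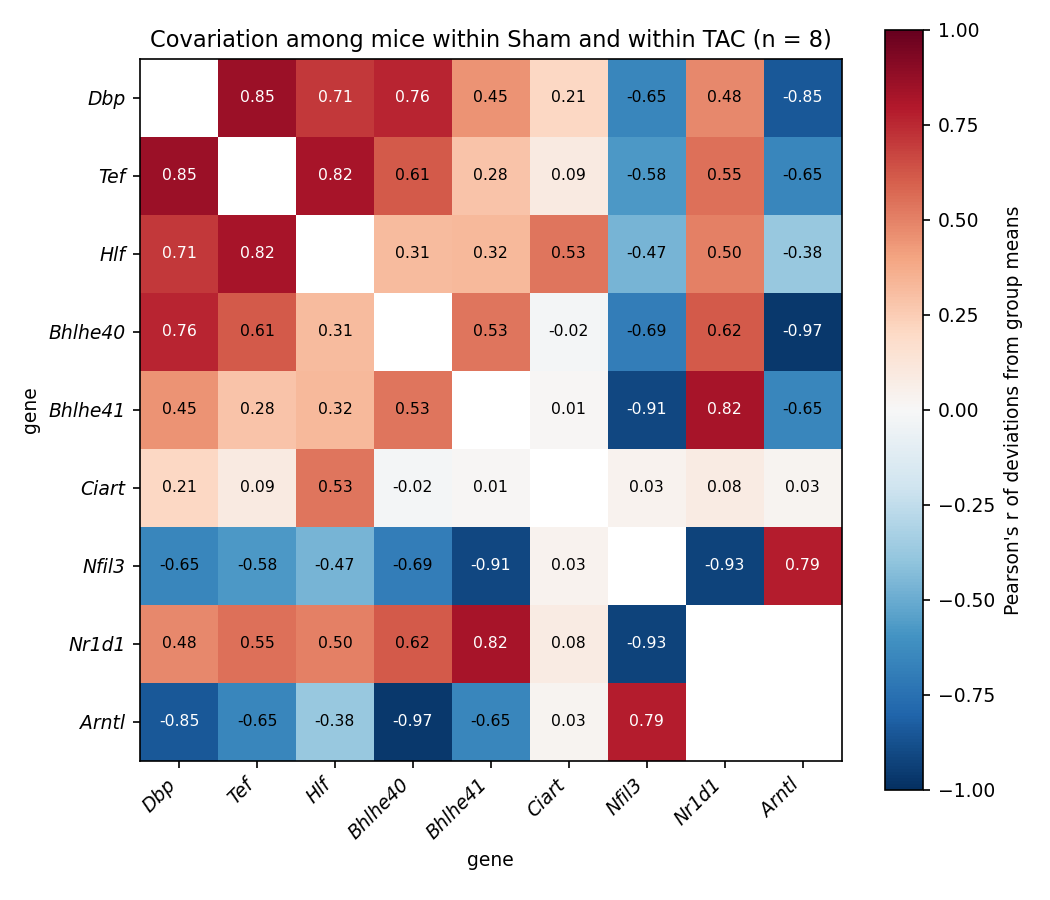
Pearson's r (colour and printed value) between deviations from the group means over 8 arrays, for each pair of the 7 genes and each of them with Nr1d1 and Arntl. Dbp, Tef and Hlf are positively related to each other (0.71 to 0.85), Nfil3 and Arntl are negatively related to most of the other genes, and the row of Ciart is pale, with values from -0.02 to 0.53.

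Across all 8 arrays, group differences included, the gene with the pattern most like each factor was sought by Pearson's r among 19741 other named probes, or 19740 for the genes with a second probe. The closest genes were Tnfaip8 for Dbp (r = 0.991), Klkb1 for Tef (r = 0.995), Smarcc2 for Hlf (r = 0.970), Ulk2 for Nfil3 (r = 0.976), Psma4 for Ciart (r = 0.988), Kcnj8 for Bhlhe40 (r = 0.984) and Cdc25b for Bhlhe41 (r = 0.963). None of these 7 genes was another clock output factor or a gene of the core loop. Ciart had the most close probes, 206 with r above 0.9, and Bhlhe41 the fewest, 30. With 8 arrays shared by all genes and the highest of so many values taken, such an r is a description only.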

How the data were processed

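BAT of 4 Sham and 4 TAC mice was measured on one-colour Agilent arrays. The authors labelled total RNA with Cy3 and, per the labels, extracted spot intensities with Agilent Feature Extraction 10.7.1.1, and the deposited scanner values are background-subtracted intensities on a linear scale, not scaled between arrays. The deposited table of all 8 arrays holds intensities that, on the 7 arrays with scanner files, lay within 1% of the scanner intensity over a constant, the array's 75th percentile, for 99.8% to 99.9% of values. Sham replicate 1 is in this table only, so its values could not be checked in this way. The array was designed on another genome assembly than the RefSeq tables (GRCm38.p6) used for names and promoters, so no probe coordinates are given.

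From 59305 spots per array, spots marked as outliers (134 to 191) were left out, log2 intensities were taken relative to the 75th percentile of the array, and spots of a probe were averaged. Probes well above background on at least 3 of 7 arrays and measured on at least 2 arrays per group were tested with lmFit and eBayes of limma 3.58.1 (R 4.3.3), with Benjamini-Hochberg adjustment over 33378 probes. RefSeq named 50.3% of probes. The brightest tested probe stands for a gene. At most 1 spot per array was saturated, and the number of arrays limits the precision. Nothing says whether mice shared a litter or cage. The p-values take the mice as independent of each other and do not allow for such sharing.

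Members, gene lists and tests were chosen with earlier results of these data known. The genes named are the 7 factors, the core loop genes measured, the 3 genes with the smallest p of the other clock lists, the closest gene to each factor, Ucp1, Cidea, Adgre1, Cd3e and Acta1, and any gene of a count of 5 or fewer. Otop1 and Elovl3 fall under the last of these. Some genes of these lists are counted but not reported singly here. Correlations of deviations from group means used exact permutation within groups. Alternatives were normexp (offset 50), median centring, quantile normalization, the table of 8 or 7 arrays, no or a stricter filter, outliers kept, the methods' t-test, a variance trend over intensity, a replicate block, each array left out and, per gene, the mean over its probes. The scripts were tested on simulated data.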

Additional observations from a re-analysis of the deposited data

Results flagged for a closer look

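Arrays far from the rest of their group were searched in 52 groups of 4, where about 1 in 20 would show one by chance. The criterion, Dixon's test on the gap to the nearest array as a share of the group's range, was met in 7 groups. In Sham, replicate 4 was apart in 2 of the PAR-bZIP activators, at 5.71 for Dbp against 6.37 to 6.48 in the other Sham mice (0.866 of the range) and at 6.65 for Tef against 6.89 to 6.93 (0.845 of the range). Per1 was lowest on Sham replicate 1, at 5.10 against 5.45 to 5.51 (0.844), and lowest in TAC on replicate 4, at 5.27 against 5.39 to 5.41 (0.876). Rorb was highest in TAC on replicate 3, at -1.47 against -1.73 to -1.69 (0.856). Alas1 was highest in TAC on replicate 1, at 7.86 against 7.40 to 7.45 (0.884). Cidea was highest in Sham on replicate 3, at 10.86 against 10.56 to 10.61 (0.830).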

How the results depend on the processing

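The differences of the 7 clock output factors stayed within 1 SD of the reported value in 139 of 142 recomputations. The exceptions were the table without TAC replicate 1, with 0.80 for Nfil3 and -0.53 for Bhlhe41, and the mean of both probes of Bhlhe41, with -0.48. The number of probes past an adjusted p of 0.05 was 0 in each direction, except for 1 lower probe with normexp and 1 with median centring. With each array left out it ranged from 0 to 6 higher and from 0 to 1 lower, the upper values without TAC replicate 4. At an unadjusted p under 0.05 there were 902 higher and 1499 lower probes without Sham replicate 3, against 1462 and 2817. No gene of the 3 clock lists passed under any alternative run. With 1 array left out, Cry2 ranged from -0.23 to 0.035, Nr1d1 from -0.33 to 0.38 and Nr1d2 from -0.22 to 0.024, while the other genes outside the 7 that are named with a difference kept their sign, some with changes of size over 1.5 times, and Hlf took both signs, from -0.05 to 0.12. Per1 was at -0.06 without TAC replicate 4. The median of the other clock-controlled genes was 0.12 in the table without TAC replicate 1. With quantile normalization 3 pairs passed, Nfil3 with Nr1d1 (r = -0.93, exact permutation adjusted p = 0.041), Bhlhe40 with Arntl (r = -0.97, adjusted p = 0.030) and Bhlhe41 with Nr1d1 (r = 0.87, adjusted p = 0.030), and 0 passed over the 7 scanned arrays, without TAC replicate 1 or with Spearman's rho. The causes were not tested.

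Replicate numbers are shared between the groups, but over all probes they did not pair the arrays. Nfil3, Arntl and Bhlhe40 nevertheless deviated alike in same-numbered mice, and Nr1d1 and Bhlhe41 nearly so. Over all probes deviations of same-numbered arrays correlated with r of 0.27, 0.02, 0.06 and 0.02 for replicates 1 to 4, and 2 of 8 arrays correlated best with their own number. With the number as a replicate block, 0 probes passed in either direction, over 7 scanned arrays or over 8, and Bhlhe40 was at -1.46 over the 7, where TAC replicate 1 has no partner, and at -1.40 over the 8. The second probe of Bhlhe41 was not well above background on 2 arrays, and the difference of the brighter probe was -0.12 with normexp.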
